A study of Rattus norvegicus with 4 samples.

Results

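The miR-130 and miR-301 family was examined in 4 small RNA libraries, 2 of cells (RC-cells, GC-cells) and 2 of matrix vesicles (RC-MVs, GC-MVs). RC-cells and GC-cells were resting zone and growth zone chondrocytes from the costochondral cartilage of male Sprague Dawley rats, grown to confluence at passage 4, and the matrix vesicles (MVs) were pelleted from the trypsin-digested cell layer of such cultures. No agent or genetic change was applied in any group, and how many animals or cultures stood behind each library is not given in the sources used here. The family was taken as every mature product numbered miR-130 or miR-301, which gave 8 of the 740 miRNA names in the count table. The 4 members are the 3p arms rno-miR-130a-3p, rno-miR-130b-3p, rno-miR-301a-3p and rno-miR-301b-3p, which are taken as the guide strands, and the other 4 products are the 5p arms of the same precursors.

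A miRNA is cut from a hairpin precursor as a duplex of a 5p and a 3p arm. The arm that is kept in an Argonaute protein is called the guide, and its bases 2 to 8, the seed, pair with target mRNAs and lower their translation or stability. Members of a family share the seed, so that they can bind many of the same targets. The family is known for repression of the nuclear receptor PPARγ, a driver of fat cell formation in mesenchymal cells, and has been studied in pulmonary hypertension. miR-130a is known as a promoter of blood vessel growth in endothelial cells, where it lowers GAX and HOXA5, and miR-301a as an activator of NF-κB through its target NKRF. The question was in what amounts these products were present in chondrocytes and in the vesicles they release, and whether the members of a family with a common seed had similar ratios of vesicles to cells.

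The mature sequences of the members are shown because the members share the seed and differ in the bases after it. RefSeq (build GRCr8) held 3 of the 4 members and 7 of the 8 products. Capitals mark the seed.

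rno-miR-130a-3p: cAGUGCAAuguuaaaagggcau

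rno-miR-130b-3p: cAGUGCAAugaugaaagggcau

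rno-miR-301b-3p: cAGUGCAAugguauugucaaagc

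The first 10 bases were the same in these 3 sequences. Counted from the 5′ end, miR-130b-3p differed from miR-130a-3p by U11A and A13G, and 20 of 22 bases were identical. miR-301b-3p shared 13 of 22 positions with miR-130a-3p and 12 of 22 with miR-130b-3p, so that the miR-130 pair and miR-301b-3p parted in the 3′ section. The member without a match was rno-miR-301a-3p. How reads that fit both members of the miR-130 pair were assigned is not given in the sources used here, so reads of the scarce miR-130b-3p could include some of miR-130a-3p.

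The precursors lie at 3 places in the genome. In GRCr8, rno-miR-130a-3p is at chr3:90229240-90229261 on the minus strand, rno-miR-130b-3p at chr11:97384430-97384451 and rno-miR-301b-3p at chr11:97384077-97384099, both on the plus strand. Mir301b and Mir130b are neighbours with 269 bases between their hairpins, and both lie within the bounds of the protein-coding gene 2610318N02Rikl. Mir301a, on chromosome 10, lies within the bounds of Ska2, a gene of the kinetochore, and of Prr11. On the strand opposite Mir130a, RefSeq places Mir3590. Its products miR-3590-5p and miR-3590-3p had 0 reads in all 4 libraries. Reads had been counted on the older build Rnor_6.0, and whether the counting used the strand is not given in the sources used here.

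The libraries held from 982543 to 7414467 miRNA reads and each group was a single library, so no difference below has a replicate check and no p-value was computed. Intervals are at the 95% level and cover counting error only, not the spread between cultures. PCR copies were counted as reads, so the intervals may be too narrow even for counting error. A count of 3 reads is used as the limit for a product with 0 reads. It corresponds to 4.60e-05% of the miRNA reads for RC-cells and 4.05e-05% for GC-cells, but to 0.000271% in RC-MVs and 0.000305% in GC-MVs. Cartilage miRNAs were found in each library, with 4 or 5 of 6 listed (miR-140, miR-455 and miR-675, both arms), while miR-675-5p was at 0 throughout, and their sum was 0.526% and 0.636% of the miRNA reads for RC-cells and GC-cells and 1.00% and 0.841% in RC-MVs and GC-MVs. That sum followed miR-140-3p, with 24948 of 34295 reads in RC-cells, while miR-140-5p and miR-455-5p had lower shares in MVs, with ratios to cells of 0.119 and 0.377 (resting zone) and of 0.267 and 0.389 (growth zone). A list of 7 blood and endothelium miRNAs, such as miR-451-5p of red cells, made up 0.0260% of the reads in RC-cells against 0.104% in RC-MVs, and 0.0223% in GC-cells against 0.252% in GC-MVs. At least 2-fold higher shares in MVs were seen for 6 of these 7 in RC-MVs and for 7 of 7 in GC-MVs, where miR-223-3p had 0 reads in GC-cells. The exception was miR-126a-3p, which supplied 1614 of the 1695 reads of the list in RC-cells and was lower in RC-MVs, with a ratio of 0.608 (exact interval 0.515 to 0.714). The liver miRNA miR-122-5p held 0.000491% in RC-cells against 0.401% in RC-MVs, and 0.000459% in GC-cells against 1.14% in GC-MVs. The 4 muscle miRNAs listed were also higher in sum in MVs, at 0.000368% in RC-cells against 0.00171% in RC-MVs, and 0.000715% in GC-cells against 0.00733% in GC-MVs, where 4 of 4 were at least 2-fold higher. In RC-MVs 2 of these 4 were, miR-206-3p and miR-133a-3p, the latter with 6 reads against 0 in RC-cells. miR-1-3p had 0 reads in RC-MVs against 6 in RC-cells. The 2 neural miRNAs were lower in sum, at 0.00117% in RC-cells against 0.000361% in RC-MVs, and 0.00154% in GC-cells against 0.000611% in GC-MVs, and miR-124-3p was at 0 throughout. Among all miRNAs with reads in both libraries, 33.6% of 414 were at least 2-fold higher in RC-MVs and 32.1% of 417 in GC-MVs. The marker lists were chosen with earlier results of these data known, so their counts are descriptions only. The part of the listed miRNAs in the family's ratios was not tested.

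The family was a minor component of every library. The 4 guide arms had 529 reads in RC-cells against 117 in RC-MVs, and 625 in GC-cells against 108 in GC-MVs. These were 0.00812% of the miRNA reads in RC-cells (Wilson interval 0.00745% to 0.00884%) and 0.0106% in RC-MVs (0.00881% to 0.0126%). In the growth zone they were 0.00843% in GC-cells (0.00779% to 0.00912%) and 0.0110% in GC-MVs (0.00911% to 0.0133%). The summed share was 1.30-fold higher in MVs than in cells for the resting zone (exact interval 1.05 to 1.59) and 1.30-fold higher for the growth zone (1.05 to 1.60). In bulk RNA, a change in how many vesicles or cells carry a miRNA and a change in the amount in each cannot be told apart. Between the zones, the ratio of RC-MVs to GC-MVs was 0.960 (0.733 to 1.26) and that of RC-cells to GC-cells was 0.963 (0.856 to 1.08). These zone ratios were lower under other scalings of the libraries, down to 0.620 between the MVs and 0.752 between the cells, both below their intervals. The sum followed miR-130a-3p, which supplied most of the reads, while miR-130b-3p and miR-301a-3p had vesicle ratios on opposite sides of 1. Without miR-130a-3p, a choice made after seeing the data, the summed ratio of MVs to cells was 0.851 (resting zone) and 0.573 (growth zone).

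**Figure D1:**
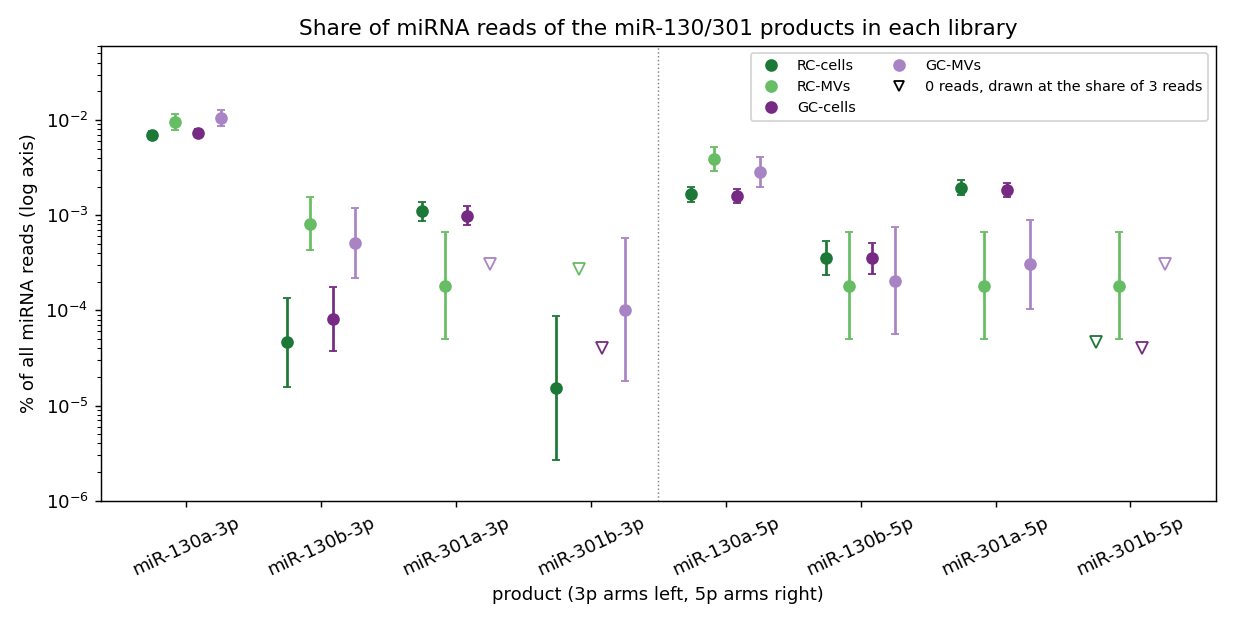
Share of all miRNA reads (percent, log axis) of the 8 products in the cell and MV libraries of each zone, with 95% Wilson intervals. Points are single libraries and open triangles stand for 0 reads, drawn at the share of 3 reads. miR-130a-3p lies highest in each library, and the miR-301a arms lie lower in MVs than in cells.

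miR-130a-3p was the most abundant member in each library. It had 453 reads in RC-cells against 106 in RC-MVs, and 546 in GC-cells against 102 in GC-MVs. Its share was 0.00695% in RC-cells (rank 178 among all miRNAs) and 0.00956% in RC-MVs (rank 146). In the growth zone it was 0.00736% in GC-cells (rank 159) and 0.0104% in GC-MVs (rank 145). In these shares both MV libraries were above both cell libraries, an order that did not hold between RC-MVs and GC-cells under 3 other scalings, the TMM factors of edgeR, the size factors of DESeq2 (both of which scale libraries by the typical miRNA in place of the total) and a total without 3 abundant miRNAs (miR-143-3p, miR-22-3p and miR-21-5p). The share in RC-MVs exceeded that in RC-cells 1.38-fold (exact interval 1.10 to 1.70) and the share in GC-MVs exceeded that in GC-cells 1.41-fold (1.13 to 1.74), and neither ratio reached 2-fold. Of the miRNAs with reads in both libraries, 58.0% (resting zone) and 57.8% (growth zone) had a lower ratio, so miR-130a-3p lay near the middle of all miRNAs. The vesicle ratio of the resting zone divided by that of the growth zone was 0.976 (0.715 to 1.33). Between RC-cells and GC-cells the ratio was 0.944 (0.831 to 1.07), and between RC-MVs and GC-MVs 0.921 (0.695 to 1.22). These zone ratios depended on the scaling. With TMM, size factors or the total without the 3 abundant miRNAs, the ratio between the cells was 0.748, 0.737 or 0.757, below that interval, and with the last of these the ratio between the MVs was 0.595.

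miR-301a-3p ranked next in the cells. It had 72 reads in RC-cells against 73 in GC-cells, which was 0.00110% and 0.000985% of the miRNA reads. In the MVs it had 2 reads in RC-MVs, a share of 0.000180%, and 0 in GC-MVs. With the share found in the cells, 12.2 reads would have fallen in RC-MVs and 9.67 in GC-MVs. The share in RC-MVs was 6.12-fold below that in RC-cells (exact interval 1.64 to 51.5). In the growth zone it was at least 3.22-fold lower in GC-MVs when 0 reads are set at the limit of 3, while the exact interval is wider and allows a difference of 2.56-fold. The ratio of RC-cells to GC-cells was 1.12 (0.799 to 1.58).

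The 5p arm of miR-301a was lower in MVs as well, with more reads than the 3p arm in the cells but few in the MVs. miR-301a-5p had 127 reads in RC-cells against 2 in RC-MVs, and 137 in GC-cells against 3 in GC-MVs. Its share in RC-MVs was 10.8-fold below that in RC-cells (exact interval 2.93 to 90.2) and in GC-MVs 6.05-fold below that in GC-cells (2.03 to 29.7). Both intervals lay wholly beyond 2-fold, that of the growth zone narrowly. The growth zone ratio of MVs to cells was 0.165, and 0.141 with TMM, 0.149 with size factors and 0.177 without the 3 abundant miRNAs. Intervals are not given for these scalings. Among miRNAs with reads in both libraries, 4.59% had a lower ratio in the resting zone, and 5.28% had one in the growth zone. These percents leave out miRNAs with 0 reads in MVs, some of which may lie lower, such as miR-19a-3p in RC-MVs. Both arms together had 199 reads in RC-cells against 4 in RC-MVs, and 210 in GC-cells against 3 in GC-MVs. Together the arms were 8.46-fold lower in RC-MVs (3.25 to 31.4) and 9.28-fold lower in GC-MVs (3.13 to 45.3). Between the cells of the zones the ratio for both arms was 1.08 (0.884 to 1.32), an interval that includes no difference, and each arm alone lay below 1 under the 3 other scalings.

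miR-130b-3p was scarce, and its share was higher in MVs. It had 3 reads in RC-cells against 9 in RC-MVs, and 6 in GC-cells against 5 in GC-MVs, although the cell libraries were the deeper ones. Its share was 4.60e-05% in RC-cells against 0.000812% in RC-MVs, and 8.09e-05% in GC-cells against 0.000509% in GC-MVs. RC-MVs over RC-cells gave a ratio of 17.6 (exact interval 4.40 to 101), which exceeded that of 397 of the 414 miRNAs with reads in both libraries. GC-MVs over GC-cells gave a ratio of 6.29 (1.52 to 24.7), above 372 of 417 miRNAs. The intervals are wide, and the interval of the growth zone includes 2-fold. Both arms of miR-130b together gave smaller ratios of MVs to cells, 2.49 (1.11 to 5.21) for the resting zone and 1.65 (0.615 to 3.81) for the growth zone. Between the zones, the ratio was 1.60 in MVs (0.480 to 6.06) and 0.569 in cells (0.0920 to 2.66), and both intervals include no difference.

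miR-301b-3p, encoded next to miR-130b, was at the limit of detection. It had 1 read each in RC-cells and GC-MVs and 0 in both others, and miR-301b-5p had 2 reads in RC-MVs and 0 in the other libraries. No ratio is given, since no library exceeded 3 reads.

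At least 2-fold differences were counted beside those of all miRNAs that had 1 read or more in both libraries. Between RC-MVs and RC-cells, 3 of the 4 guide arms could be compared, of which 1 (miR-130b-3p) was higher and 1 (miR-301a-3p) lower in MVs, while 33.6% of all 414 miRNAs were higher and 30.4% lower. Between GC-MVs and GC-cells, 2 guide arms could be compared and 1 (miR-130b-3p) was higher, beside 32.1% of 417 miRNAs higher and 25.2% lower. With the 5p arms included, 2 of 6 products were higher and 2 lower in RC-MVs, and 1 of 5 was higher and 1 lower in GC-MVs. The median log2 ratio of the products was -0.25 (resting zone) and 0.50 (growth zone), while that of all miRNAs was 0.08 and 0.13. The 2 product medians rest on different sets. That of the growth zone leaves out miR-301a-3p, with 0 reads in GC-MVs against 73 in GC-cells, and is raised by this. The shares of products called cannot be set apart from the background with so few of them.

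Between the zones no product reached 2-fold when shares of all miRNA reads were compared. Of all 397 miRNAs with reads in both MV libraries, 24.7% were higher in RC-MVs and 14.6% lower, and 0 of 5 products differed. Of 474 miRNAs compared between the cells, 13.7% were higher in RC-cells and 5.7% lower, and 0 of 6 products differed. With other scalings miR-301a-5p, with 2 against 3 reads, passed 2-fold between RC-MVs and GC-MVs at 0.497 (size factors) and 0.382 (without the 3 abundant miRNAs). Between the cells miR-130b-3p, with 3 against 6 reads, passed it at 0.451 with TMM, 0.444 with size factors and 0.456 without the 3 abundant miRNAs. The shares of all miRNAs that passed 2-fold under these scalings are not given.

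**Figure D2:**
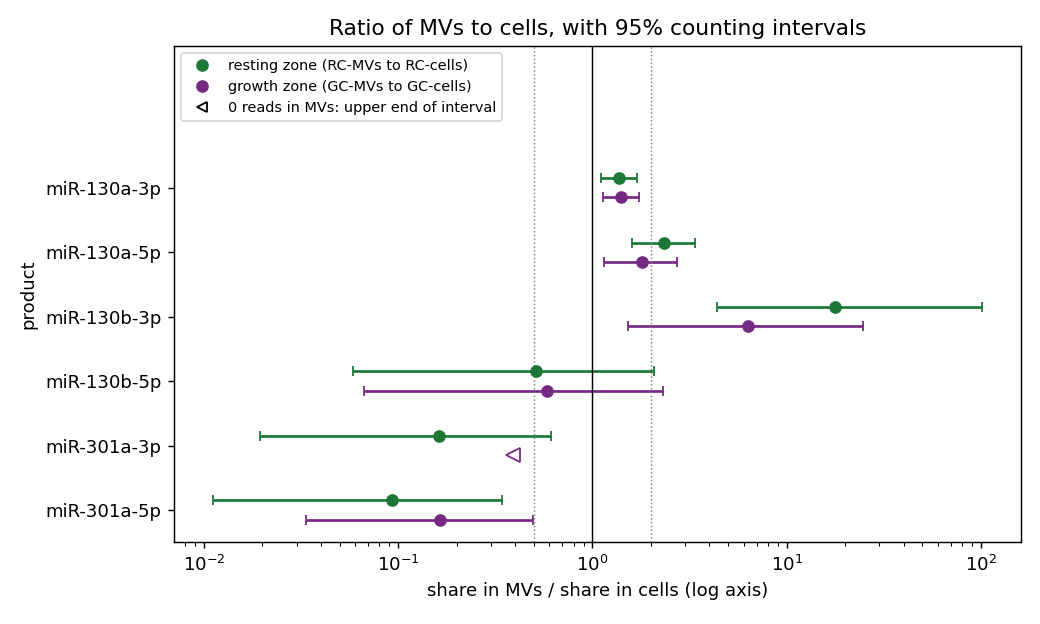
Ratio of the share in MVs to the share in cells (log axis) for 6 products in the resting and growth zones, with exact 95% counting intervals. The open triangle marks the upper end of the interval for miR-301a-3p, which had 0 reads in GC-MVs. Dotted lines mark 2-fold in either direction. miR-130b-3p lies to the right of 1 in both zones and both arms of miR-301a to the left.

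**Figure D3:**
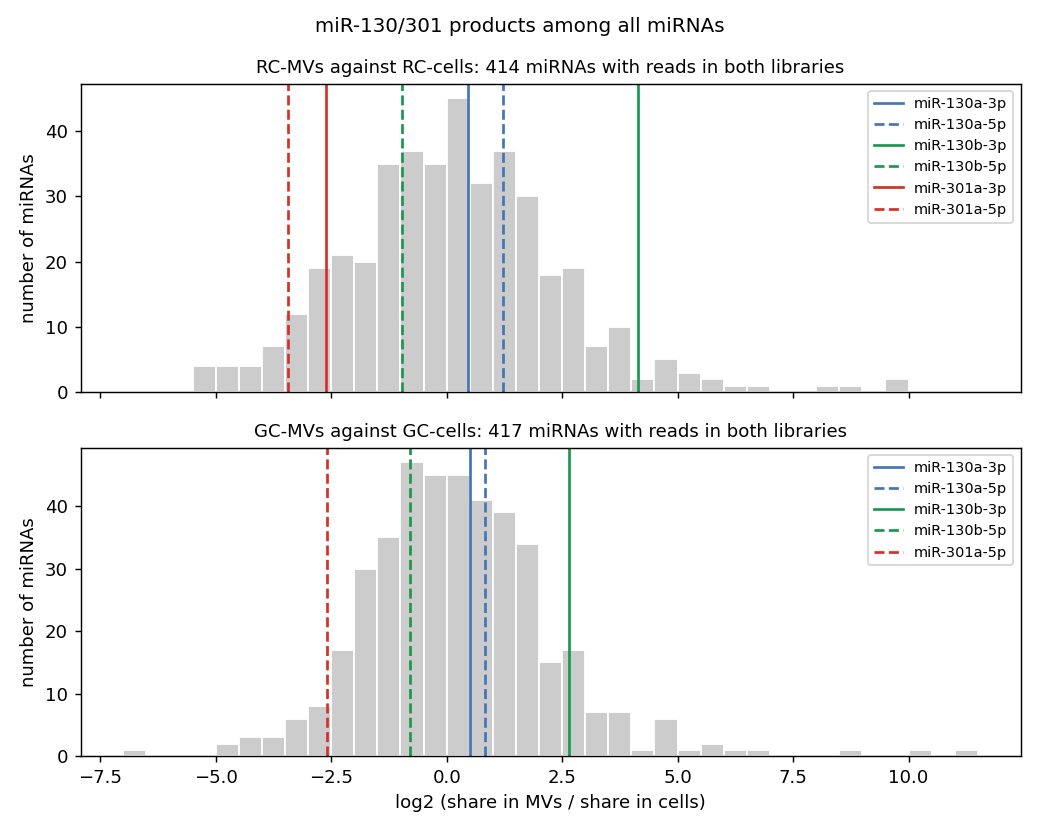
Histograms of the log2 ratio of the share in MVs to the share in cells over 414 miRNAs in the resting zone (top) and 417 in the growth zone (bottom), in bins of 0.5. Vertical lines are the family's products with reads in both libraries. miR-130a-3p lies near the middle in both panels, miR-130b-3p in the right part and miR-301a-5p at the far left of the products.

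The make-up of the family was compared within each library, since the ratio of one member to another does not depend on the library total. miR-130a-3p supplied 85.6% of the guide arm reads in RC-cells (Wilson interval 82.4% to 88.4%) against 90.6% in RC-MVs (83.9% to 94.7%). It supplied 87.4% in GC-cells (84.5% to 89.7%) against 94.4% in GC-MVs (88.4% to 97.4%). miR-301a-3p supplied 13.6% in RC-cells (10.9% to 16.8%) and 11.7% in GC-cells (9.39% to 14.4%), but 1.71% in RC-MVs (0.470% to 6.02%) and 0 of 108 reads in GC-MVs. miR-130b-3p supplied 0.567% in RC-cells (0.193% to 1.65%) and 0.960% in GC-cells (0.441% to 2.08%), compared with 7.69% in RC-MVs (4.10% to 14.0%) and 4.63% in GC-MVs (1.99% to 10.4%). The intervals of cells and MVs did not overlap for miR-301a-3p in either zone, nor for miR-130b-3p in the resting zone. For miR-130b-3p in the growth zone they overlapped.

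The order of the members therefore differed between cells and vesicles. In the cells miR-301a-3p was in the second place and miR-130b-3p in the third, with intervals of their shares that did not overlap, and miR-301b-3p with at most 1 read came last. In both MV libraries miR-130b-3p had more reads than miR-301a-3p, but the intervals of their parts of the guide arm reads overlapped. There were 6.29 reads of miR-130a-3p for each read of miR-301a-3p in RC-cells and 53 in RC-MVs, a ratio 8.42 times as high (exact conditional interval 2.18 to 71.9). In the growth zone there were 7.48 in GC-cells, and the lower end of the interval for GC-MVs against GC-cells was 3.52. The reads of miR-130b-3p per read of miR-130a-3p were 12.8 times as many in RC-MVs as in RC-cells (3.11 to 74.4) and 4.46 times as many in GC-MVs as in GC-cells (1.05 to 17.9). Between RC-cells and GC-cells the number of miR-130a-3p reads per miR-301a-3p read differed by a factor of 0.841 (0.585 to 1.21).

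**Figure D4:**
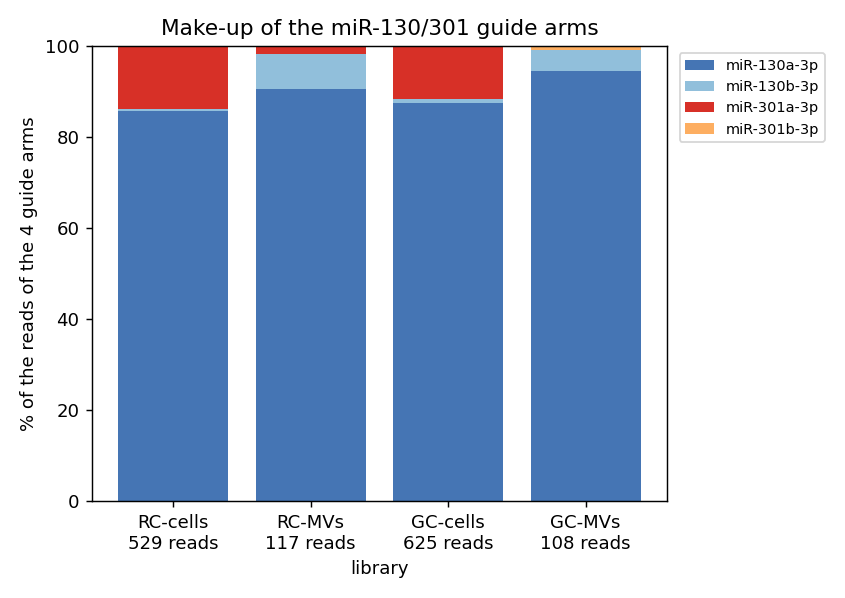
Percent of the reads of the 4 guide arms that each member supplied in the 4 libraries, as stacked bars with the number of reads under each. miR-301a-3p takes a larger part of the bars of the cell libraries, and miR-130b-3p a larger part of the bars of the MV libraries.

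The arms of the precursors were compared next, and the hairpins of the miR-130 pair are shown because their arm balance differed. Capitals mark the mature 5p arm and then the mature 3p arm, from RefSeq (GRCr8).

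Mir130a: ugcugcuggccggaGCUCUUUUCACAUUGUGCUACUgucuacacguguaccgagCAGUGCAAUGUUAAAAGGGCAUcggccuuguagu

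Mir130b: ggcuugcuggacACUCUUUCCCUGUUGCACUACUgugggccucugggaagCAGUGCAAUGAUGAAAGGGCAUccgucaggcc

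For mir-130a the 3p arm was the major one in each library. It made up 80.7% of the reads of both arms in RC-cells (Wilson interval 77.3% to 83.8%) and 71.1% in RC-MVs (63.4% to 77.8%). It made up 82.2% in GC-cells (79.1% to 84.9%) and 78.5% in GC-MVs (70.6% to 84.7%). miR-130a-5p itself had 108 reads in RC-cells against 43 in RC-MVs, and 118 in GC-cells against 28 in GC-MVs. Its share in RC-MVs exceeded that in RC-cells 2.34-fold (exact interval 1.60 to 3.36), and in GC-MVs exceeded that in GC-cells 1.79-fold (1.14 to 2.72). Reads of the 3p arm per read of the 5p arm were 0.588 times as many in RC-MVs as in RC-cells (0.383 to 0.912), and 0.787 times as many in GC-MVs as in GC-cells (0.488 to 1.30), an interval that includes no change.

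For mir-130b the arm with more reads differed between cells and vesicles. miR-130b-5p had 23 reads in RC-cells against 2 in RC-MVs, and 26 in GC-cells against 2 in GC-MVs. The 3p arm made up 11.5% of 26 reads in RC-cells (Wilson interval 4.00% to 29.0%) and 18.8% of 32 reads in GC-cells (8.89% to 35.3%), compared with 81.8% of 11 reads in RC-MVs (52.3% to 94.9%) and 71.4% of 7 reads in GC-MVs (35.9% to 91.8%). The interval of GC-MVs includes 50%. In the cells the 5p arm therefore had more reads than the guide. Reads of the 3p arm per read of the 5p arm were 34.5 times as many in RC-MVs as in RC-cells (exact conditional interval 3.85 to 409) and 10.8 times as many in GC-MVs as in GC-cells (1.27 to 129). The 5p arm alone was 1.96-fold lower in RC-MVs (0.483 to 17.1), and this interval includes no difference.

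For mir-301a the 5p arm also had more reads than the 3p arm in the cells. The 3p arm made up 36.2% of 199 reads in RC-cells (Wilson interval 29.8% to 43.1%) and 34.8% of 210 reads in GC-cells (28.6% to 41.4%), and neither interval reached 50%. The counts of both arms in MVs (4 for RC-MVs, 3 for GC-MVs) were too few for a comparison of the arms.

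**Figure D5:**
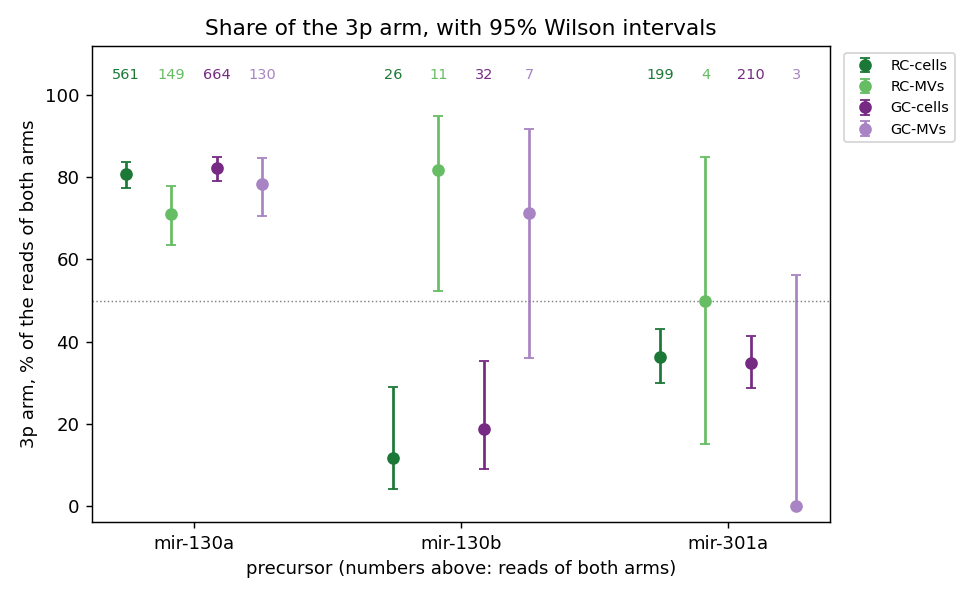
Share of the 3p arm among the reads of both arms of mir-130a, mir-130b and mir-301a in each library, with 95% Wilson intervals and the number of reads of both arms above. The 3p arm of mir-130a lies above 50% in each library, that of mir-130b below 50% in cells and above it in MVs, and that of mir-301a below 50% in cells.

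Other miRNAs with a related seed were set beside the family. No other miRNA in the RefSeq table had the seed AGUGCAA. miR-19a-3p and miR-19b-3p, of the oncogenic miR-17-92 cluster, share 6 of its 7 letters, GUGCAA, when displaced by 1 base. The group of miR-148 and miR-152, known for repression of DNA methyltransferase 1, shares AGUGCA in the same way. A further locus of miR-19b-3p, Mir19b2, lies on chromosome X, outside that cluster, and the reads of the 2 loci were added. Sequences are shown to make the displacement visible, with the seed in capitals.

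rno-miR-19b-3p: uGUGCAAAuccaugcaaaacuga

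rno-miR-152-3p: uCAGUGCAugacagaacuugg

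rno-miR-148a-3p: uCAGUGCAcuacagaacuuug

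miR-19b-3p was close to miR-130a-3p in abundance, with 781 reads in RC-cells against 94 in RC-MVs, and 542 in GC-cells against 116 in GC-MVs. Its vesicle ratio differed between the zones beyond counting error. It was 0.707 in the resting zone (exact interval 0.565 to 0.877) and 1.62 in the growth zone (1.31 to 1.98), so that the resting zone ratio was 0.438 times that of the growth zone (0.323 to 0.593). Reads of miR-130a-3p per read of miR-19b-3p were 1.94 times as many in RC-MVs as in RC-cells (1.42 to 2.66). For GC-MVs and GC-cells this factor was 0.873 (0.645 to 1.18). miR-19a-3p had 96 reads in RC-cells against 0 in RC-MVs, and 93 in GC-cells against 8 in GC-MVs.

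The group of miR-148 and miR-152 was far more abundant and its members were split as well. miR-152-3p held 0.748% of the miRNA reads in RC-cells against 1.77% in RC-MVs, and 0.613% in GC-cells against 1.30% in GC-MVs, and was 2.37-fold (2.33 to 2.41) and 2.12-fold (2.08 to 2.16) higher in MVs. miR-148a-3p had 174303 reads in RC-cells against 5540 in RC-MVs, and 187622 in GC-cells against 12940 in GC-MVs, with a ratio of MVs to cells of 0.187 (0.182 to 0.192) in the resting zone and 0.520 (0.511 to 0.530) in the growth zone. miR-148b-3p had ratios of 0.201 (0.176 to 0.230) and 0.511 (0.465 to 0.561). In the growth zone the side of 2-fold depended on the scaling, since with TMM and size factors miR-152-3p was at 1.81 and 1.91, miR-148a-3p at 0.445 and 0.470 and miR-148b-3p at 0.438 and 0.461. Reads of miR-152-3p per read of miR-148a-3p were 12.7 times as many in RC-MVs as in RC-cells (12.3 to 13.1) and 4.07 times as many in GC-MVs as in GC-cells (3.96 to 4.18).

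The miRNAs with the most similar pattern were sought for the members with reads in all 4 libraries. Each log2 share was centred on its mean over the 4 libraries, and likeness was the Euclidean distance to the miRNAs with at least 100 reads in each library. For miR-130a-3p the nearest of 130 candidates were miR-31a-5p at a distance of 0.118, miR-191a-5p at 0.209 and miR-1839-5p at 0.323, compared with a median of 1.46. The vesicle ratio of miR-31a-5p was 1.33 (1.27 to 1.39) for the resting zone and 1.29 (1.23 to 1.36) for the growth zone. For miR-130b-3p, which had few reads, the nearest were miR-22-3p at 0.731, miR-129-5p at 0.756 and miR-760-3p at 0.980, with a median of 3.36. These are descriptions over 4 libraries, and miR-301a-3p and miR-301b-3p were not placed because of their counts of 0.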

How the data were processed

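Small RNA of 4 libraries was sequenced on an Illumina HiSeq. Alignment by the authors used Bowtie2 and Rnor_6.0 within miARma-Seq, and they deposited whole-number read counts per annotated locus, without normalization. Tool versions, trimming, strand and the treatment of reads matching several loci are not given in the sources used here. Counts of equal names were added, which turned 774 loci into 740 names. Each family product had 1 locus. Shares are percents of all miRNA reads of a library, with Wilson intervals. Ratios of shares have exact Clopper-Pearson intervals, and ratios of ratios exact conditional odds ratio intervals. Outside the marker lists, a difference was called at 2-fold with at least 1 read in both libraries. The marker counts also took in miR-223-3p (growth zone) and miR-133a-3p (resting zone), which had 0 reads in the cells. No significance test between groups was made.

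The named miRNAs were the 8 products, miRNAs of the same seed in RefSeq and 5 with a displaced seed. Also named were the 3 nearest in pattern to miR-130a-3p and to miR-130b-3p, and cell type markers (cartilage, blood and endothelium, liver, muscle and neural). Members and lists were chosen with earlier results of these data known. RefSeq held 660 of the 740 names. Alternatives were DESeq2's size factors, edgeR's TMM, totals without miR-143-3p, miR-22-3p and miR-21-5p, a pseudocount of 0.5 reads, a minimum of 10 reads, stricter calls and both arms. Python 3.11.15, numpy 2.4.6, pandas 2.3.3, scipy 1.17.1, matplotlib 3.10.9, R 4.3.3, edgeR 4.0.16 and DESeq2 1.42.0 were used.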

Additional observations from a re-analysis of the deposited data

How the results depend on the processing

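No paired analysis was possible because each group had 1 library, so that the groups compared share only 1 replicate number, and no result came from a test. The zones are groups of the study and were not used as replicates. The summed guide arm ratios of MVs to cells stayed within their intervals under the 3 other scalings, a pseudocount of 0.5 and both arms, from 1.12 to 1.30 (resting zone) and from 1.12 to 1.40 (growth zone). With both arms the growth zone ratio was 1.17 (0.976 to 1.40), an interval that includes no difference. Intervals are not given for the other scalings, so whether those would exclude no difference is not shown. Without miR-130a-3p, an alternative chosen after seeing the data, the summed ratios of MVs to cells were 0.851 and 0.573, and the zone ratios were 1.62 in MVs and 1.09 in cells. The zone ratio in cells was 0.763 with TMM, 0.752 with size factors and 0.773 without the 3 abundant miRNAs, and with that last total the zone ratio in MVs was 0.620. These scalings moved the log2 ratios of all miRNAs between the cells by -0.34, -0.36 and -0.32, and the last moved those between the MVs by -0.63. Under each of the 3, 1 member (miR-130b-3p, 3 against 6 reads) became 2-fold different between the cells, where 0 were. With at least 10 reads in both libraries, 0 members differed between MVs and cells in either zone, since each of those called had fewer. With the whole interval beyond 2-fold, 1 member (miR-130b-3p) was left between RC-MVs and RC-cells and 0 between GC-MVs and GC-cells. The share of all miRNAs called is given for the main setting only. Counts of members or products under other settings therefore have no background beside them. Of 88 ratios of single products under the scalings and the pseudocount, 84 stayed within their intervals and 4 (miR-130a-3p between the zones) did not. In 13 of the 88 the ratio lay on the other side of 1, of which 12 were zone ratios between the cells (miR-130a-5p, miR-130b-5p and both arms of miR-301a, under each of the 3 scalings) and 1 was that of miR-130a-5p between the MVs, 0.879 in place of 1.36 without the 3 abundant miRNAs. No 2-fold call of a product was lost and 9 were gained. Besides miR-130b-3p between the cells and miR-301a-5p between the MVs, these were miR-130b-5p, lower in RC-MVs than RC-cells at 0.480, 0.497 and 0.442 under the 3 scalings and in GC-MVs than GC-cells at 0.497 with TMM. Of 408 ratios of the other named miRNAs, whose intervals are mostly narrower, 276 stayed within them and 132 did not. Each product had 1 locus, so counting loci apart changed nothing. Depth limits the MV libraries most.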
